A study of Mus musculus with 4 samples.

Results

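The regions described here are sites of the mouse genome at which an antibody against RNA:DNA hybrids gave a called interval after 1 of 2 hairpins against Ube2t, at the end of a gene, and in no other library of the study. The cells were P19, which derive from a mouse embryonal carcinoma. The assay was CUT&Tag, which directs a transposase to bound antibody so that nearby DNA is cut and tagged. There were 4 libraries, 1 per condition. Cells labelled wild-type had been given a control adenovirus and were profiled with the antibody S9.6 (shCtrl) or with no primary antibody. Cells labelled Ube2t knockdown had been given an adenovirus with hairpin 1 (shUbe2t #1) or hairpin 2 (shUbe2t #2) and were profiled with S9.6. All 4 cultures thus carried an adenovirus, and no library of cells without virus or of cells treated to remove hybrids was analysed here. Peak names of the library labelled as having no primary antibody begin with IgG, and the label is followed here.

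The intervals of the 3 S9.6 lists were merged where they touched or overlapped, which gave 2773 regions. Of these, 592 held intervals of shUbe2t #1 only, and 586 of the 592 lay on chromosomes 1 to 19, X or Y. A no-antibody interval overlapped 5 of them. Of the remaining 581, 364 had a gene end, start or far end, no more than 1000 bp away and are the members, each made of 1 interval, and 217 did not. Members made up 26.8% of the 1356 S9.6 gene-end regions free of no-antibody intervals. The members were thus chosen by the peak call in shUbe2t #1, by its absence from the other lists and by the position at a gene end, and these are no finding about them. Because each condition had 1 library, conditions could not be tested against each other, no p-value is given, and all differences are between these libraries. Bounds on shares are exact (Clopper-Pearson) 95% binomial intervals, and those on fragment counts are exact 95% Poisson intervals. Both cover counting error only, and the first treat neighbouring regions as independent.

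R-loops are structures in which an RNA pairs with one strand of the DNA and displaces the other strand. They form behind transcribing RNA polymerase and are known to be frequent at CpG-island promoters, where the new RNA can be rich in G. UBE2T is the ubiquitin-conjugating enzyme that works with the ligase FANCL to mark the FANCD2-FANCI complex in the Fanconi anaemia pathway, which deals with DNA crosslinks and with stalled replication forks. The study asks what UBE2T does in the removal of R-loops. S9.6 intervals were not shown here to be R-loops. Neither the Ube2t transcript nor the cell type's markers can be read from peaks. Ube2t itself (chromosome 1, 134962565 to 134974180) was no member, and no S9.6 library had an interval closer than 226 kb to it (no antibody, 256 kb).

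Most members with a known gene orientation lay at gene starts, and the promoters there were rich in CpG. The promoters of the 5 members with the highest fold enrichment are printed to show these sequences, together with that of Trim12c, whose CpG ratio was the lowest among those of the 15 highest-fold members whose promoter was in the table. Each runs 5′ to 3′ on the strand of the gene from 250 bases before the start to 50 after it, and comes from RefSeq on the build GRCm38.p6, which is the same as the mm10 of the peak lists. Capitals mark CCAAT, the box bound by the factor NF-Y, and GGGCGG, the GC box bound by Sp1-type factors, each on either strand and overlapping where they meet.
Zfp983 chr17:21650361-21650660 (+ strand): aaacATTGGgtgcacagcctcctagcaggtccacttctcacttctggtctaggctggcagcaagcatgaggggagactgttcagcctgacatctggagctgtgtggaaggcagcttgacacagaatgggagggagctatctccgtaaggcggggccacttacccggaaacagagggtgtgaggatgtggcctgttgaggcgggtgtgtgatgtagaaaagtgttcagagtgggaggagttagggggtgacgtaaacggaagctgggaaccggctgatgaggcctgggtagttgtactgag
Skap2 chr6:52012500-52012799 (- strand): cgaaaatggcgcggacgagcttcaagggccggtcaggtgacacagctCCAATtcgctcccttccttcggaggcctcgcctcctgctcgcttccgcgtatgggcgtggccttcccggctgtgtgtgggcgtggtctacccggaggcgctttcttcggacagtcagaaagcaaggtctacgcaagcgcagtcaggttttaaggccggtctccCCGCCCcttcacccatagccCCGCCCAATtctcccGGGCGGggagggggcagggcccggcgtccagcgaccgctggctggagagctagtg
Armc10 chr5:21645756-21646055 (+ strand): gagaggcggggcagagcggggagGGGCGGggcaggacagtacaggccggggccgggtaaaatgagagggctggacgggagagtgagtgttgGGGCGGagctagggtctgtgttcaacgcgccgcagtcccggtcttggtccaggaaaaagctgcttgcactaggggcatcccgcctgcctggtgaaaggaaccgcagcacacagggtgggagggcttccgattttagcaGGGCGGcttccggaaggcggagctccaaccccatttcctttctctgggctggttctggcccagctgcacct
Pbrm1 chr14:31018888-31019187 (+ strand): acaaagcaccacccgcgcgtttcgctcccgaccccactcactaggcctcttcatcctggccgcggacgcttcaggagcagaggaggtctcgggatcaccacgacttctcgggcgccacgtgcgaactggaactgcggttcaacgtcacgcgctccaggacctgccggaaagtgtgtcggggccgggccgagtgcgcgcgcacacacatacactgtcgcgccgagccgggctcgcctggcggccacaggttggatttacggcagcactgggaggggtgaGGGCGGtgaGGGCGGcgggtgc
Fbxo5 chr10:5805416-5805715 (- strand): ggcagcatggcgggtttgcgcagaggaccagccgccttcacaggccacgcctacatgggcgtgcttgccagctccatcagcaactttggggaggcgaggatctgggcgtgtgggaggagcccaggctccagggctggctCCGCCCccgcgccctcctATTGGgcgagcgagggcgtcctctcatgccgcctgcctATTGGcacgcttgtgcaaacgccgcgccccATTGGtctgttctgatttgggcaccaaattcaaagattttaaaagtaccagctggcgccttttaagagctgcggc
Trim12c chr7:104353300-104353599 (- strand): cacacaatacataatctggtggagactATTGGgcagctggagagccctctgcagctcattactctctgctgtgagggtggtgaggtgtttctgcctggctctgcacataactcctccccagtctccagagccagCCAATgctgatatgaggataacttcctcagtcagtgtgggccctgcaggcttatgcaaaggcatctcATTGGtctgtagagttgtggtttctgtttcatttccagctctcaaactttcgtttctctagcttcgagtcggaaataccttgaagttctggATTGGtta

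The windows overlapped the called intervals by 249 bases at Zfp983, 202 at Skap2, 300 at Armc10, 190 at Pbrm1, 254 at Fbxo5 and 220 at Trim12c. Pbrm1 held 35 CpG in its window, Skap2 28, Fbxo5 20 and Armc10 17, against 7 at Zfp983 and 3 at Trim12c. The ratio of observed to expected CpG, which is 1 where C and G fall next to each other as often as their frequencies allow, was 1.01 at Pbrm1, 0.857 at Skap2, 0.679 at Fbxo5, 0.571 at Armc10, 0.335 at Zfp983 and 0.167 at Trim12c. Thus the member with the highest fold was not one of those rich in CpG. GC boxes numbered 3 at Skap2, 3 at Armc10, 2 at Pbrm1 and 1 at Fbxo5, and CCAAT boxes 4 at Trim12c, 3 at Fbxo5, 2 at Skap2 and 1 at Zfp983.

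The members had low to moderate folds for their list. The deposited fold enrichment, which is the authors' value for each summit over background, ranged from 3.33 to 7.46 with a median of 4.52. The background was taken to be that of the same library, since the use of a control library is not stated. The median member stood at the 38.9th percentile of fold among all shUbe2t #1 intervals and the highest at the 85.0th. That ranking includes intervals over no-antibody intervals, which the members exclude by rule. Median folds of other gene-end regions were 4.61 for shUbe2t #2 alone, 4.46 for shCtrl alone, 4.65 for both hairpins and 5.00 for all 3 libraries. A low fold thus did not set the members apart from the other regions of 1 library alone. From fold and p the number of fragments piled up at the summit was recovered for all 364 members. It ranged from 8 to 25 with a median of 13, for which the Poisson interval is 6.92 to 22.2. The background it was set against had a median of 2.08 fragments and a highest value of 6.30. Members were short, with a median of 240 bp and a longest of 620 bp, and 89 had the 200 bp that is also the shortest length in each of the 4 lists.

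No pileup is known in the libraries without a call, and only a bound can be given. For each member the smallest pileup that shCtrl or shUbe2t #2 would have called was computed at the same background, scaled for depth. The lowest background of a list rises with its sequencing depth and was 1.21 in shUbe2t #1, 1.31 in shCtrl and 1.23 in shUbe2t #2. Members had passed the call limit of shUbe2t #1 by selection. The lowest −log10 p was close in the lists, at 4.66 in shUbe2t #1, 4.65 in shCtrl and 4.63 in shUbe2t #2. Ratios above 1 thus follow mostly from the selection and are no finding. The summit stood at a median of 1.33 times the limit of shCtrl and 1.32 times that of shUbe2t #2. It was above the limit of shCtrl at 350 members and above 1.5 times that limit at 99 (27.2%, 22.7 to 32.1). For shUbe2t #2 the corresponding numbers were 363 and 85 (23.4%, 19.1 to 28). More than 2 times the limit was reached at 7 members for shCtrl and at 5 for shUbe2t #2. At 27 members the lower Poisson bound of the summit, scaled for depth, was itself above the limit of shCtrl. That bound does not allow for the selection of members by the same pileup. At the other members a pileup just under that limit was within the counting error of the shUbe2t #1 summit, so that most of the calls in 1 library alone could not be told from a small shortfall in the other.

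**Figure D1:**
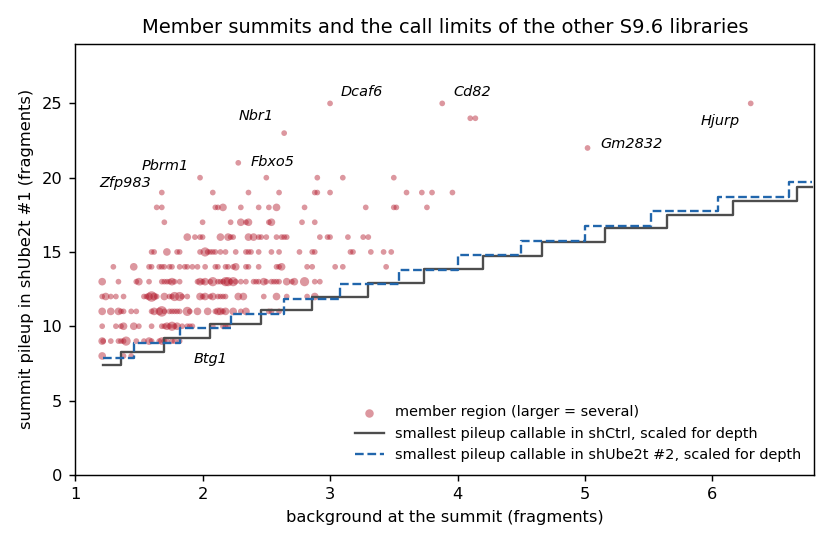
Summit pileup in shUbe2t #1 (fragments) against the background at the summit (fragments) for the 364 members, with a larger dot where several share both values. The lines give the smallest pileup callable in shCtrl (solid) and shUbe2t #2 (dashed), scaled to the depth of shUbe2t #1. Most dots lie close above the lines, and the highest pileup is 25.

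The member with the highest fold lay at the start of Zfp983, a zinc finger protein gene (chromosome 17, 21650412 to 21650671). Its fold was 7.46, with 19 fragments (11.4 to 29.7) over a background of 1.68. No interval was called there in shCtrl, in shUbe2t #2 or without antibody, and either S9.6 library would have called it from 9 fragments. At Skap2, the gene of an adaptor of Src-family kinase signalling (chromosome 6, 52012570 to 52012771), the fold was 7.2 with 18 fragments. The region at Armc10, an armadillo repeat protein gene (chromosome 5, 21645751 to 21646057), had a fold of 7.09 with 18 fragments and lay between diverging starts, 53 bp from Fbxl13. Pbrm1 encodes the polybromo subunit of the PBAF chromatin remodelling complex, and its region (chromosome 14, 31018998 to 31019270; fold 7.05, 20 fragments) was also near an end of Gnl3, the gene of nucleostemin. These 4 stood at 2.17 to 2.29 times the call limit of shCtrl and 2.03 to 2.14 times that of shUbe2t #2.

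Fbxo5 encodes EMI1, an inhibitor of the anaphase-promoting complex, and its region had a fold of 6.71 with 21 fragments (13 to 32.1). A region called in shUbe2t #2 lay 219 bp from it, so the absence of shUbe2t #2 at the member itself does not mean that this promoter was without a call there. The region 417 bp from the annotated end of Nbr1, an autophagy receptor gene, had a fold of 6.59 with 23 fragments (chromosome 11, 101552524 to 101552859). It was 569 bp from Brca1, the gene of a homologous recombination factor. A start of Nbr1 in the promoter table lay inside it. At Dcaf6, which encodes a substrate receptor of CUL4 ligases, the fold was 6.50 with 25 fragments. Intervals of shCtrl and of shUbe2t #2 lay 188 and 204 bp from the Dcaf6 region, which is thus a side of a site called in every S9.6 library. Near Ccna2, the cyclin A2 gene, the fold was 6.15 with 15 fragments. That region was 753 bp from an end of Ccna2 whose orientation is not in the promoter table and also lay at the far end of Bbs7, a ciliary BBSome gene.

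The other members among the first 15 by fold were at genes of varied function. Elp6, an Elongator subunit gene, had a fold of 6.67 with 17 fragments at 563 bp from the annotated gene end. Nus1, which encodes a subunit of the dolichol-making prenyltransferase, had 6.49 with 19 fragments. Trim12c, a tripartite motif gene, had 6.33 with 13 fragments over the lowest background of the library, 1.21. Grk6, a receptor kinase gene, had a fold of 6.13, Dctn6, a dynactin subunit gene, 6.11, Nat8f1, an acetyltransferase family gene, 6.10, and Add1, the alpha-adducin gene, 6.09.

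Ranking by pileup brought in members over higher backgrounds. At Hjurp, the gene of the chaperone that loads the centromeric histone CENP-A, 25 fragments over a background of 6.30 gave a fold of 3.56. Cd82, a tetraspanin gene, had 25 fragments and a fold of 5.33. Ddit3, the gene of the stress factor CHOP, had 24 fragments and a fold of 4.90, and the region was also near an end of Mbd6. Mtmr4, a lipid phosphatase gene, had 24 fragments (4.86), and the predicted gene Gm2832 had 22 (3.82). Hjurp and Gm2832 stood at 1.36 and 1.4 times the call limit of shCtrl, against 1.81 at Cd82 and 1.74 at Ddit3 and Mtmr4.

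**Figure D2:**
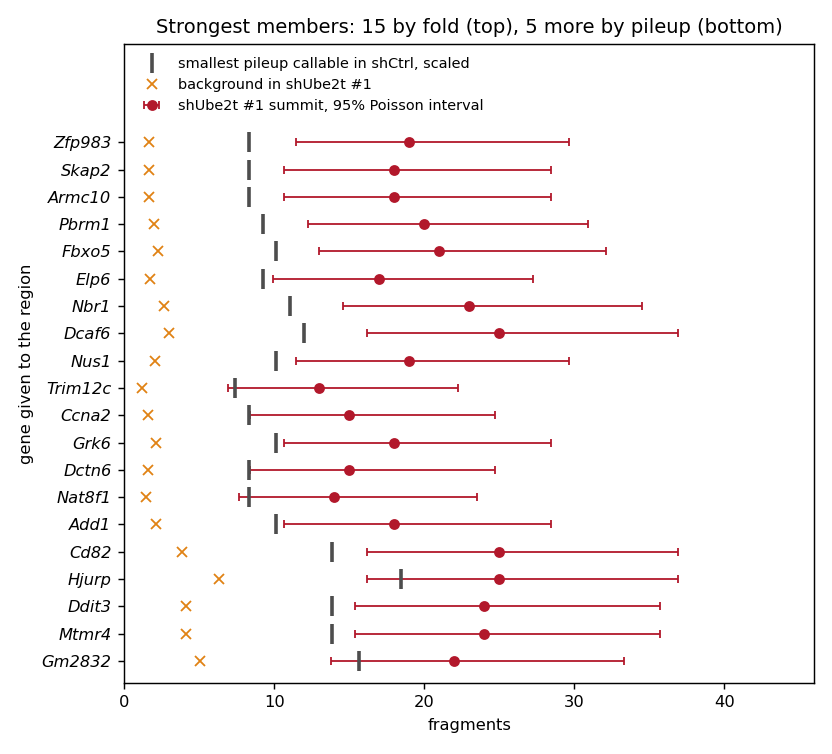
Summit pileup in shUbe2t #1 (fragments, dots) with exact 95% Poisson intervals for the 15 members of highest fold with a gene that is not predicted and for 5 more of highest pileup. Vertical bars mark the smallest pileup callable in shCtrl after scaling for depth and crosses the background in shUbe2t #1. The intervals of Trim12c, Nat8f1, Hjurp and Gm2832 reach below the bar.

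At the other edge of the selection, the lowest deposited −log10 q among members was 1.32 at Btg1, an anti-proliferation gene, with 9 fragments and a fold of 3.55. It was 1.34 at Trpc6, a cation channel gene, with 8 fragments, and 1.35 at Casp8ap2, the gene of a histone pre-mRNA processing factor, with 10. Just inside the distance limit lay Zfp239 (981 bp, fold 3.73), Cabs1 (979 bp, 5.6) and Map3k12 (864 bp, 3.70). These distances are to annotated gene ends, and the promoter table holds further starts. By that table the summit lay at 180 bp from a start of Zfp239, and at Map3k12 it lay at -229 bp from a start of Tarbp2, negative being upstream. Just outside it, and so no members, lay regions at 1019 bp from Gabbr2 (fold 4.62), 1048 bp from Nasp (5.53) and 1116 bp from Bag5 (4.2). The folds on both sides of the distance limit overlapped.

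A gene end in the selection could be the start or the far end of the gene. Where the promoter table gave the orientation of a gene there, 293 of 305 members lay at a start (96.1%, 93.2 to 98.0). The other 12 lay at far ends alone, among them Slc11a1, an iron transporter gene (fold 5.95), and 10 of the 293 were at a start and at another gene's far end. For 59 members no orientation was given. The share at starts was 97.8% (95.7 to 99.0) for regions of shUbe2t #2 alone and 96.5% (91.3 to 99.0) for regions of shCtrl alone. Without antibody it was 72.5% (29 of 40, 56.1 to 85.4), over the few intervals near a gene end. The starts were thus shared by the S9.6 classes and do not set the members apart from them, and the difference from the no-antibody list was not tested.

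Summits of the members gathered just upstream of gene starts. A start from the promoter table lay within 1000 bp of 287 summits. The median position was -54 bp, with negative values upstream, and the middle 50% ran from -164 to 39 bp. Within 250 bp of the start lay 219 of the 287 (76.3%), and 193 were upstream (67.2%, 61.5 to 72.6). The medians were -68 bp for shUbe2t #2 alone, -44 bp for shCtrl alone and -97 bp for regions of both hairpins. Diverging starts of a pair of genes lay at 68 of 354 members on chromosomes of the promoter table (19.2%, 15.2 to 23.7), as against 19.3% for shUbe2t #2 alone and 14.7% (9.43 to 21.4) for shCtrl alone. Of the protein-coding promoters in the table, 2142 of 17492 were divergent (12.2%). That share counts protein-coding promoters, while the shares above count regions with any such pair of starts, coding or not, within 1000 bp. They are therefore not like for like.

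**Figure D3:**
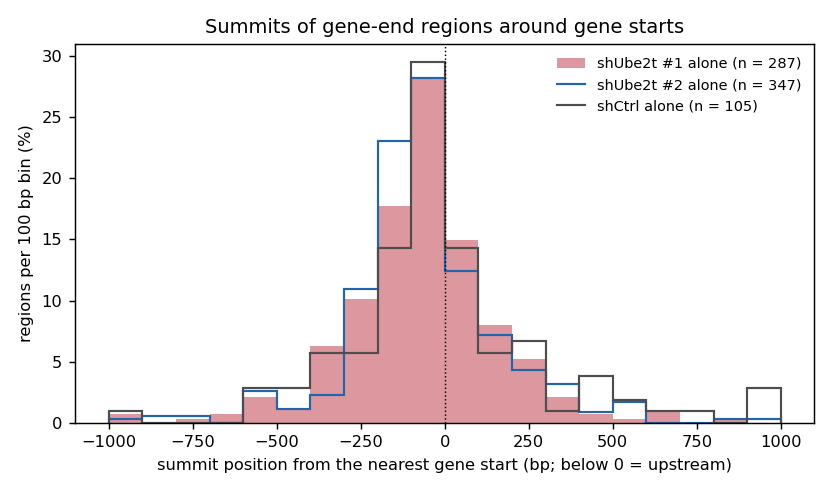
Position of summits from the nearest gene start (bp, upstream below 0) for gene-end regions of shUbe2t #1 alone (filled, n = 287), shUbe2t #2 alone (n = 347) and shCtrl alone (n = 105), as percent of regions per 100 bp bin. All 3 distributions peak in the bin just upstream of the start.

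Promoters within 250 bp of a member, 319 in number, were richer in G and C than promoters in general. Their median GC content was 64.3% (middle 50%, 59.3 to 68.7), against 56.3% for the 17492 protein-coding promoters of the table. The median CpG ratio was 0.805 against 0.576, and 83.4% of member promoters were above 0.6 against 48.3%. The same medians were 0.80 for shUbe2t #2 alone, 0.812 for shCtrl alone and 0.796 for both hairpins, and 0.701 for the 18 promoters at no-antibody intervals. Thus the CpG content held for each kind of S9.6 gene-end region. The skew, which is G minus C over their sum on the strand of the gene, had a median of 0.01 in member promoters, and 51.7% were above 0, against 51.4% of protein-coding promoters.

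**Figure D4:**
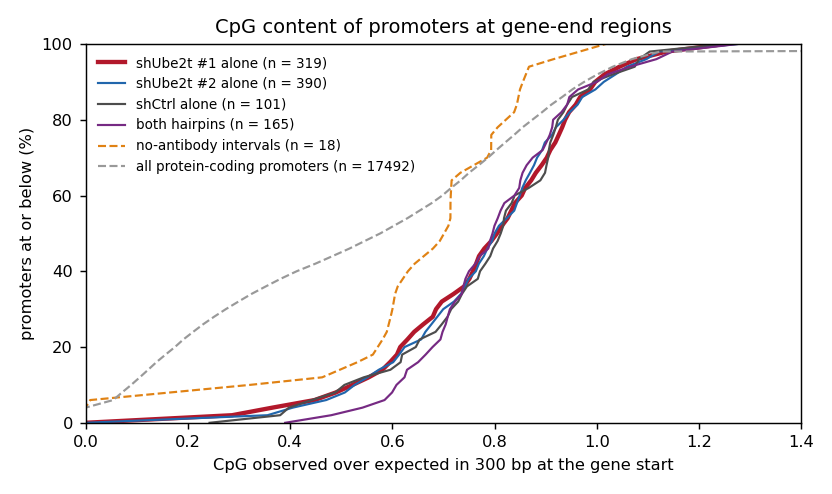
Cumulative share of promoters (%) by CpG observed over expected in the 300 bp window at the gene start. The curves for shUbe2t #1 alone (n = 319), shUbe2t #2 alone, shCtrl alone and both hairpins run close together to the right of all protein-coding promoters (dashed grey), with medians of 0.805, 0.80, 0.812, 0.796 and 0.576.

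The GC box GGGCGG stood in 76.8% of member promoters (71.8 to 81.3) and in 46.3% of protein-coding promoters, with both strands searched. The CCAAT box stood in 55.5% (49.8 to 61.0) against 39.0%, and CCGGAAG, the core bound by ETS factors, in 17.2% (13.3 to 21.8) against 11.9%. TATAAA was found in 4.39% (2.42 to 7.25) against 13.3%. The E-box CACGTG was in 8.78% against 7.90%, TGACGTCA, the cAMP response element, in 3.13% against 2.34%, and the palindromic NRF1 motif in 1.57% against 1.32%. GGGG, a run of G on either strand, was in 96.9% against 87.3%. Over all 27025 genes of the table, the shares were 35.9% for GGGCGG, 37.9% for CCAAT, 9.12% for CCGGAAG, 14.2% for TATAAA, 7.24% for CACGTG, 1.88% for TGACGTCA, 0.977% for the NRF1 motif and 85.9% for GGGG. Promoters of shUbe2t #2 alone held GGGCGG in 79.7%, CCAAT in 49.2% (44.2 to 54.3), CCGGAAG in 18.7% and TATAAA in 4.36%. Those of shCtrl alone held GGGCGG in 83.2%, CCAAT in 56.4% (46.2 to 66.3), CCGGAAG in 22.8% and TATAAA in 2.97%. These motif shares thus do not set the members apart from the other regions of 1 library alone. GC-rich motifs are more likely in GC-rich windows by composition, and matches are letters in a window, not bound sites.

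The members lay near the ends of 490 genes, 0.981% of the 49943 placed genes, and 399 of these were among the 21887 protein-coding genes (1.82%). The protein-coding share was 2.17% for shUbe2t #2 alone, 0.631% for shCtrl alone, 0.941% for both hairpins and 6.45% for any S9.6 gene-end region. Protein-coding genes at members had a median length of 27029 bp against 17169 bp over all, and those at shUbe2t #2-only regions had 29185 bp. The region was given to a protein-coding gene in 336 cases and to a long non-coding RNA in 18. Only 1 gene near the region was found at 246 members, and 2 genes at 109. Ensa, the gene of an inhibitor of the phosphatase PP2A, had 2 members (folds 4.64 and 4.34), and so had Klhl24, the gene of a ubiquitin ligase adaptor (5.47 and 3.68).

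Genes of ubiquitin conjugation and removal had the most members of any list. Of 327 genes with Ube, Rnf, Trim, Fbxo, Fbxl, Fbxw or Usp names, 16 had a member (4.89%, 2.82 to 7.82), beside the 1.82% of all protein-coding genes. For shUbe2t #2 alone the number was 6 (1.83%, 0.676 to 3.95). Fbxo5 and Rnf31 were counted in both numbers, with a shUbe2t #2 interval 219 and 71 bp from the member. At regions of both hairpins there were 5 list genes, and at regions of all 3 S9.6 libraries 4. The list was thus not particular to shUbe2t #1. Among genes with a promoter CpG ratio above 0.6, a split added after the data were examined, 6.98% of the list had a member, against 3.05% of all such protein-coding genes (3.77% for shUbe2t #2 alone). Of the 30 list genes at any S9.6 gene-end region, 16 were at members, against 28.3% of protein-coding genes at such regions. The highest folds were at Fbxl13 (7.09, shared with Armc10), Fbxo5 (6.71), Trim12c (6.33) and Fbxo11, the gene of a ligase subunit (5.64), and the median over the list was 4.62. These are counts of 1 library, the difference between the hairpins was not tested, and this list was chosen with earlier results of these data known.

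Genes of transcription initiation and elongation at members numbered 7 (5.22% of the list, 2.13 to 10.5), and 6 were found with shUbe2t #2 alone. Of the 104 list genes with a promoter CpG ratio above 0.6, 5 had a member (4.81%), against 3.05% of all such protein-coding genes. For shUbe2t #2 alone the number was 6 of the 104. No interval was computed for this split, so an excess beyond promoter CpG content was not tested. The Integrator subunit gene Ints3 had a fold of 5.88, the RNA polymerase III subunit gene Polr3b 5.8, Polr1d, the gene of a subunit shared by polymerases I and III, 5.76, and the elongation factor gene Ell2 5.04. Genes of R-loop processing factors held 3 of 42 (7.14%, 1.5 to 19.5), a share whose interval includes the 1.82% of all protein-coding genes. They were Brca1 (6.59), Senp3, the gene of a nucleolar SUMO protease (5.12, at a region given to the translation factor gene Eif4a1), and the RNA helicase gene Ddx5 (3.93, at a region given to Polg2). All 3 thus shared their region with a neighbouring gene.

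The following counts stand beside 1.82% of all protein-coding genes for the members and 2.17% for shUbe2t #2 alone. Zinc finger genes with Zfp or Zscan names had 12 of 413 (2.91%, 1.51 to 5.02), led by Zfp983, Zfp438 (5.90), Zfp462 (5.70) and Zfp345 (5.04). The DNA repair and replication list had 1 of 127, again Brca1 (0.787%, 0.0199 to 4.31), against 7 with shUbe2t #2 alone. That list is a choice of names and leaves out Primpol (5.56) and Smc6 (4.84), which had members. Starts of Gen1 (at the Smc6 region), Lig1 (5.22), Mbd4 (4.02) and Xrcc6 (3.60) also lay within 250 bp of members. None of them was counted for the list, and all are examples named after their values were seen. Smc6 and Gen1 were also at regions of shUbe2t #2 alone. Brca1 was thus not the only gene of this kind at a member, and the counts of both hairpins cover listed names only. The list of chromatin regulators had 3 of 112 (2.68%) against 10 with shUbe2t #2 alone (8.93%). Its members were at the remodelling subunit gene Smarcd2 (5.00) and the histone-binding genes Ing5 (4.17) and Ing1 (3.62). Pbrm1 (7.05) and Ep400 (4.97), also chromatin genes, had members but were not on that list. The same held for Gatad2b (4.67), Actl6a (4.48) and Phf12 (4.17), named after their values were seen. The counts of both hairpins thus cover listed names only here too. Vesicle traffic genes had 4 of 232 (1.72%) against 10 (4.31%), with members at the small GTPase genes Rab5a (5.07), Rab11b (4.51), Rab43 (4.32) and Arl13b (3.85). Cell cycle genes had 3 of 141 (2.13%) against 6 (4.26%), with Ccna2 (6.15), Ccnc (4.72) and E2f1 (4.02). Splicing factors had 1 of 107 (0.935%), Rbm25 (5.42), against 5 (4.67%). The members' intervals of these 6 lists all include 1.82%. None of these differences between the hairpins was tested.

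Solute carriers had 6 of 375 (1.60%, 0.589 to 3.45), close to the 1.82% of all protein-coding genes, with Slc11a1 (5.95), Slc27a6 (5.45), Slc35e1 (5.31) and Slc25a25 (5.30) the highest. Ribosomal protein genes had 2 of 83 (2.41%), Rpl15 (4.71) and Rpl7 (4.17), and mitochondrial ribosomal protein genes 2 of 78 (2.56%), Mrpl47 (4.36) and Mrpl50 (4.01). Of 53 DEAD and DEAH box helicase genes, Ddx54 (4.46) and Ddx5 had members. Of 105 translation factor and tRNA synthetase genes, Eif4g2 (5.13) and Eif4a1 (5.12) had members. The proteasome list had Psme2 (4.64) of 51 and the oxidative phosphorylation list Ndufb5 (4.36) of 96. Immediate early and p53 response genes had 2 of 35, Fos (4.04) and Btg1 (3.55), with 4 for shUbe2t #2 alone. None of the 62 replication-dependent histone genes (interval up to 5.78%) or the 30 pluripotency genes (up to 11.6%) had a member. Small RNA genes had 11 of 1830 (0.601%, 0.300 to 1.07), an interval that includes the 0.324% of genes that are not protein-coding. Mir7036b (6.09), Scarna17 (5.59), Mir695 (5.13) and Mir7240 (4.44) were the highest. Some of the 11 shared a region, such as Snord49a and Snord49b.

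**Figure D5:**
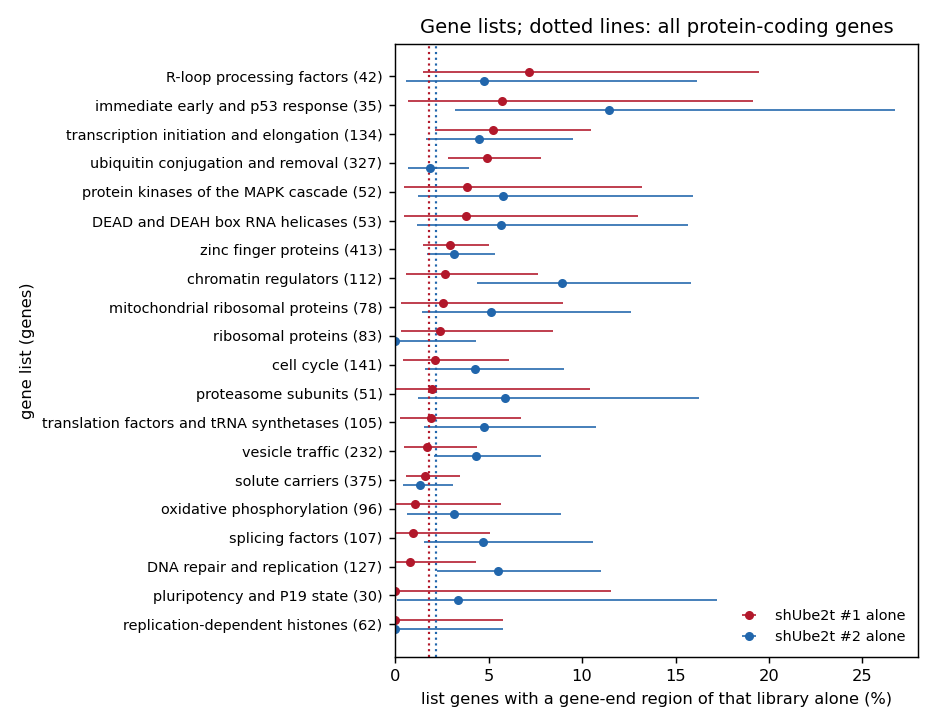
Share of genes of each protein-coding list (%) with a gene-end region of shUbe2t #1 alone (red) or shUbe2t #2 alone (blue), with exact 95% binomial intervals and the number of genes in brackets. Dotted lines give all protein-coding genes (1.82% and 2.17%). For shUbe2t #1 alone the intervals of the ubiquitin list (from 2.82%) and the transcription list (from 2.13%) lie above the line. Each interval is for its list alone and makes no allowance for the number of lists shown. The lists were chosen with earlier results of these data known, and no list was tested. The lines are not matched for promoter CpG content.

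By the rule no member touched or overlapped an interval of another S9.6 list. Intervals close by were counted for the members only, so their share has no reference among other regions. Within 1000 bp, an interval of shUbe2t #2 lay beside 15 members, one of shCtrl beside 5, and one of either beside 17 (4.67%). The 5 beside shCtrl intervals, named after their values were seen, were at Dcaf6, Gm20760, Zdhhc5, Nr1d2 and Gm2832. Those beside shUbe2t #2 included Fbxo5 and, also named after their values were seen, Rnf31 at 71 bp, Smc6 at 24 bp and Cdk2ap2 at 50 bp. The nearest no-antibody interval to any member was at 11182 bp. By gene, 16 of the 490 genes at members were also at regions of shUbe2t #2 alone, which is 3.27% of the first list and 2.72% of the 589 genes of the second. Of all placed genes, 1.18% were at regions of shUbe2t #2 alone. The share was 2.17% of protein-coding genes and 3.77% of those with a promoter CpG ratio above 0.6. Most genes at members were protein-coding (399 of the 490), so the 1.18% is not a like-for-like share. The overlap was not tested. Genes side by side can share a region, and neighbouring calls at 1 promoter count here as a shared gene.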

How the data were processed

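Peak lists of 4 CUT&Tag libraries were analysed, 1 per library. The tools named in the submitters' processing notes are MACS2 2.1.2, Bowtie under the version 0.7.12, and Trimmomatic, with the build mm10. Duplicate handling, the q threshold and whether MACS2 was given a control are not stated there. Per the labels' protocols, libraries were amplified for 11 PCR cycles. The deposited values are a fold enrichment (a ratio), −log10 p and −log10 q of each summit, and a score that was not used. The number of fragments per library is unknown.

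Intervals repeated for several summits were counted once, with the summit of best p. Positions are counted from 1. Summit pileup k and background b were recovered from fold = (k + 1)/(b + 1) and the Poisson tail p, with residuals under 0.005 for all members, and the step was tested on simulated data. Of 354 member backgrounds above the library's lowest value, 354 were multiples of 0.02 within 0.002. The ratio of lowest backgrounds served as relative depth. Call limits took the lowest −log10 p of the other list and ignore the smallest length a call needs.

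Genes and starts came from RefSeq tables of GRCm38.p6. Promoters were given for 27025 genes and for 386 of the 490 genes at members, with none on the chromosome of 10 members. The nearest gene end named each region, with predicted genes (Gm, Rik, LOC and clone names) last. The genes named are the 15 members of highest fold with a gene that is not predicted, 5 more by pileup, 3 by lowest q, 3 on each side of the distance limit, genes with 2 members, up to 4 of highest fold per list, and Ube2t; others are marked. Members and the 21 lists were chosen with earlier results of these data known. The genes of 1 list are not reported here. Python 3.11.15, scipy 1.17.1 and pandas 2.3.3 were used.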

Additional observations from a re-analysis of the deposited data

How the results depend on the processing

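The number of members, their share near a gene end, median fold, ratios to the call limits, neighbours, list genes and CpG ratio were recomputed under 7 alternatives, 1 more was run for the ratios alone and 1 more for the CpG ratio alone. The share at gene starts under the 7 was added after the data were examined. Motif shares, summit positions, single lists and chromosomes were not recomputed. With a −log10 q of at least 5 in all lists there were 132 members, of which 76 were members before and 56 were not. There, the median fold was 5.69, the summit stood at 1.08 times the limit of shCtrl and 1.08 times that of shUbe2t #2, 2.27% had another S9.6 interval within 1000 bp, list genes fell from 79 to 29, and the CpG ratio was 0.762. With 1263 intervals from each S9.6 list, 265 of 303 members were the same, the median fold was 4.90 and the ratios to the limits 1.45 and 1.10. Merging over 1000 bp left 0% with a neighbour within 1000 bp by construction, and requiring an overlap of 50% of the shorter interval gave 10.3%. The share of shUbe2t #1-only regions near a gene end, 62.7%, was 58.0% within 500 bp and 58.3% with protein-coding genes, and the share at starts was 98.9% within 500 bp. Depth from median backgrounds gave 1.29 times the limit of shCtrl. The other recomputed values of these results stayed within the interval of the reported one or, for counts, within 1.5 times. A median summit of 13 fragments limits every single region. No paired analysis was possible because each condition has 1 library.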

Other observations

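Chromosome 11 held 41 of the 364 (11.3%, 8.21 to 15), with 7.35% of the protein-coding genes, and regions of shUbe2t #2 alone reached 13.6% there. Chromosome 17 held 6 members (1.65%, 0.608 to 3.55) with 4.84% of the genes, against 20 regions of shUbe2t #2 alone. Chromosome X held 1 member (0.275%, 0.00696 to 1.52) with 4.41% of the genes, against 8 regions of shUbe2t #2 alone and 1 of shCtrl alone. Chromosome Y held none. No difference between the classes was tested, and these chromosomes were picked after the counts were seen.

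Regions of 1 library alone were short whichever library called them. The median length was 240 bp for shUbe2t #1 alone, 229 bp for shUbe2t #2 alone and 214 bp for shCtrl alone, against 382 bp for gene-end regions of both hairpins and 483 bp for those of all 3 libraries. Merged regions of several libraries are the union of their intervals.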
